A study of Drosophila melanogaster with 6 samples.

Results

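The genes described here encode the structural proteins of the basement membrane of Drosophila melanogaster, together with peroxidasin, an enzyme of blood cells that works on that matrix. They were chosen by name, and all 8 of them (Pxn, vkg, Cg25C, LanA, LanB1, LanB2, trol and Ndg) were found among the 14862 genes of the authors' deposited table. Every one had a positive log2 fold change there. The perlecan gene trol and the peroxidasin gene Pxn passed the test over all genes, and the laminin alpha gene LanA fell just outside the threshold.

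The study asked whether lowering insulin signalling in the mother's germ line changes gene expression in her offspring. It has 2 groups of 3 samples. Each sample is polyadenylated RNA from 200 embryos, for which the labels give an age of 16 to 20 h. In the InR-DN group the embryos came from oocytes that expressed a dominant-negative insulin receptor, a form that blocks the normal receptor. In the control group they came from oocytes that expressed green fluorescent protein (GFP). The labels name neither the driver of the transgenes nor the strain, nor do they say that replicates are separate crosses, so the p-values may measure only technical spread.

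The file used is the authors' deposited table, which gives each gene, for this comparison, 1 log2 fold change, 1 average level and 1 test, and no value per sample. The numerator of the fold change is not stated. A positive value is therefore called the positive side, and it cannot be said which group had more of any transcript. Genes with a single read fall on 12 separate levels of the average, which shows that the authors fitted 12 libraries. The fold change compares 3 of them on the positive side with 3 on the negative side, and the other 6 do not enter it. The other 6 may still enter the estimated spread between replicates on which the authors' test rests. In units of 1000000 reads, the 6 compared libraries had effective sizes of 23.4 to 40.4, and the other 6 of 15.8 to 33.0. Average levels are in CPM, a gene's reads per 1000000 reads of a library, and are over all 12 libraries. Values after ± are standard errors (SE) derived from the table, each the size of the log2 fold change divided by the square root of the authors' likelihood ratio statistic.

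Basement membranes are thin sheets of extracellular matrix that line epithelia, muscles, nerve cord and gut. Laminin trimers, each of an alpha, a beta and a gamma chain, assemble at cell surfaces through integrins and dystroglycan, and a network of collagen IV trimers is laid over them. Nidogen and perlecan link the networks, and peroxidasin forms bonds that cross-link collagen IV. In the fly embryo migrating blood cells (hemocytes) are known to deposit collagen IV, laminin and peroxidasin, and the fat body is the main source of collagen IV in the larva.

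The authors' deposited table calls 2 of the 8 genes on the positive side, by edgeR's likelihood ratio test with a Benjamini-Hochberg adjusted p under 0.05, and 0 on the negative side. Over all genes, 2.30% were called positive and 2.19% negative. Among the 6231 genes whose average lay in the range of the 8, from 12.1 to 330 CPM, these shares were 1.16% and 0.594%. An unadjusted p under 0.05 with a positive sign was found for 6 of 8, against 5.66% of all genes and 3.11% of genes in that range. The sign was positive for 8 of 8, against 49.2% of all genes and 55.9% of those in the range. The median log2 fold change of the 8 was 0.58, and that of genes in the range was 0.02. A log2 fold change of 0.5 or more was seen for 6 of the 8, against 16.9% of all genes and 3.35% of those in the range. The 8 genes share tissues and were chosen with results of these data known, so these shares are a description and not a test of the set.

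**Figure D1:**
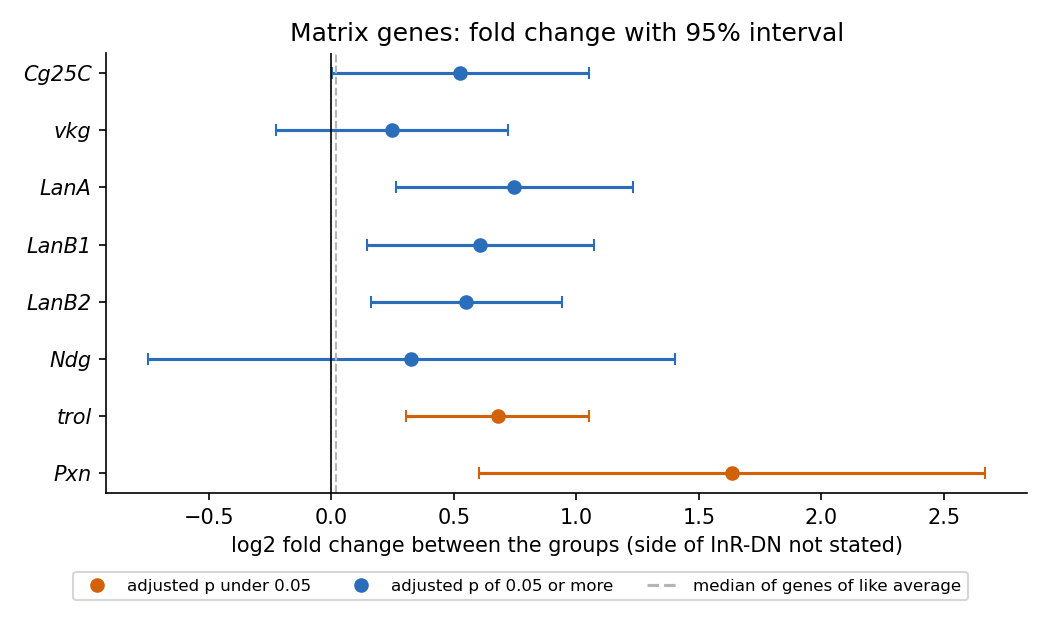
Log2 fold change of the 8 matrix genes (points) with the 95% interval from the derived SE (bars), from the authors' deposited table. Orange points passed an adjusted p of 0.05, and the dashed line is the median of the 6231 genes of like average. Every point lies right of 0, and the intervals of vkg and Ndg reach below it.

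Collagen IV is made of the products of Cg25C (alpha 1 chain, also called Col4a1) and vkg (alpha 2 chain). In the Release 6 annotation these genes are next to each other on chromosome arm 2L, on opposite strands and facing away from each other. The authors' deposited table gives Cg25C a log2 fold change of 0.53 ± 0.27 with an unadjusted p of 0.0498, and the adjusted p was 0.498. It gives vkg 0.25 ± 0.24, and the adjusted p was 0.987. Neither collagen gene passed the test. The 95% interval ran from 1.00-fold to 2.07-fold for Cg25C and from 0.854-fold to 1.65-fold for vkg. The estimates of the pair differed by 0.28 on the log2 scale, about the size of 1 SE of either gene.

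The laminin chains lay close together. LanA, the alpha chain gene of the main embryonic trimer, has a log2 fold change of 0.75 ± 0.25 in the authors' deposited table, and its adjusted p was 0.0547. For LanB1, the only beta chain gene, the authors' deposited table lists 0.61 ± 0.24, and the adjusted p was 0.167. For LanB2, the only gamma chain gene, the same table lists 0.55 ± 0.20, and the adjusted p was 0.103. None of the laminin genes passed, while each had an unadjusted p under 0.05 (0.00251, 0.0103 and 0.00554 in that order). The 95% intervals were 1.20-fold to 2.35-fold for LanA, 1.10-fold to 2.10-fold for LanB1 and 1.12-fold to 1.92-fold for LanB2. The estimates of LanA and LanB2 were 0.20 apart on the log2 scale, within 1 SE of LanA. wb, which encodes the other laminin alpha chain, has 0.49 ± 0.21 in the authors' deposited table, and its adjusted p was 0.270.

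Of the proteins that link the networks, trol passed and Ndg did not. trol encodes perlecan, a heparan sulphate proteoglycan, and has a log2 fold change of 0.68 ± 0.19 in the authors' deposited table; its adjusted p was 0.0113. This is a 1.60-fold difference with a 95% interval of 1.23-fold to 2.07-fold. Ndg encodes nidogen, which binds laminin, and has 0.33 ± 0.55 in the authors' deposited table, where its adjusted p was 1. Its interval, from 0.595-fold to 2.64-fold, contains the whole interval of trol, so these values do not set the genes apart.

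Pxn showed the greatest difference of the 8. Its log2 fold change in the authors' deposited table was 1.64 ± 0.53, a 3.11-fold difference with a 95% interval of 1.52-fold to 6.36-fold. The adjusted p was 0.0446, close to the threshold, since a call at the edge of this table took 3.06 SE. When fold changes were centred on the median of genes of 16 CPM or more, the adjusted p of Pxn became 0.0501. The interval of Pxn overlaps those of the other 7 genes.

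**Figure D2:**
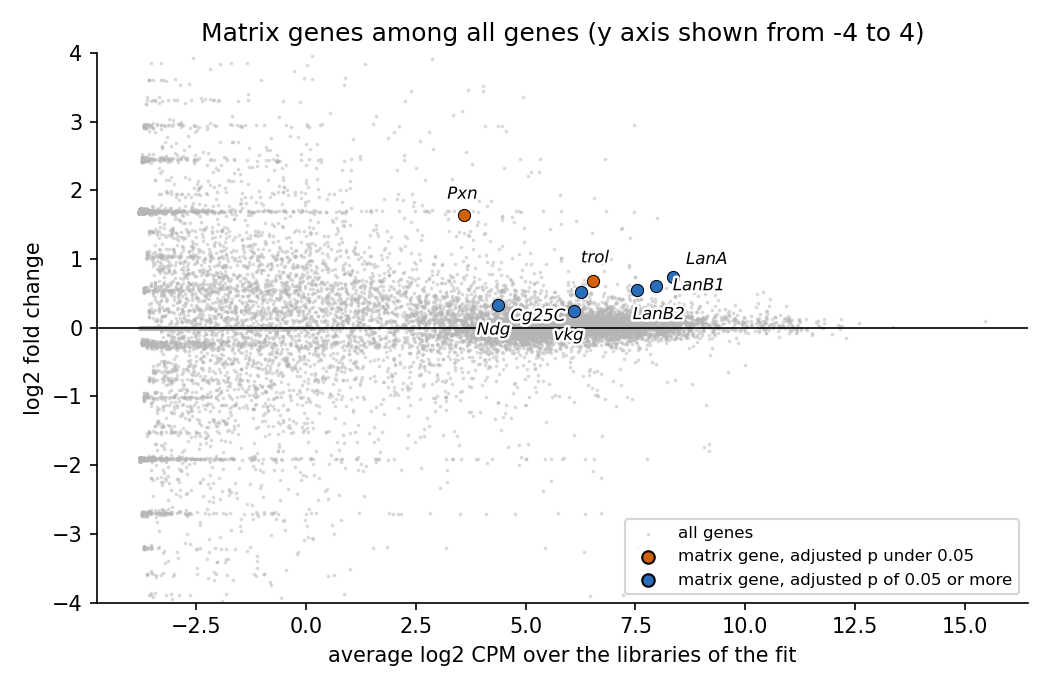
Log2 fold change (y axis) against average log2 CPM over the 12 libraries of the fit (x axis) for all genes (grey) and the 8 matrix genes (coloured, orange where the adjusted p was under 0.05), from the authors' deposited table. The 8 genes lie above 0 between 12.1 and 330 CPM, with Pxn at 1.64 and the others between 0.25 and 0.75; genes beyond 4 on either side are not shown.

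The average levels ordered the genes by family. LanA was highest in the authors' deposited table at an average of 330 CPM, followed by LanB1 at 251 CPM and LanB2 at 185 CPM. Next in the authors' deposited table came trol at 93.2 CPM, Cg25C at 76.9, vkg at 69.1, Ndg at 20.5 and Pxn at 12.1. Long transcripts collect more reads, so levels were also divided by the longest annotated transcript, which is 14.2 kb for trol, 11.7 kb for LanA and between 4.82 and 6.43 kb for the others. On this scale of average CPM per kb, LanB1 had 40.3, LanB2 31.6 and LanA 28.3. Cg25C had 12.6 CPM per kb, vkg 10.8, trol 6.55, Ndg 4.27 and Pxn 2.32. The laminin chains thus lay within a 1.43-fold range per length, and the collagen IV chains within 1.17-fold. These are averages with no spread per library, so neighbours in the order cannot be tested, and 6 of the 12 libraries are not among the embryos compared.

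How much of each average belongs to the embryos can only be bounded. If the other 6 libraries held no read of a gene, the mean over the 6 compared libraries would be at most 23.8 CPM for Pxn, 40.8 CPM for Ndg, 186 CPM for trol and 661 CPM for LanA. The lowest possible level follows from the test statistic, because a likelihood ratio of a given size at a given fold needs a minimum of reads. Over the 6 compared libraries this minimum was 37.7 reads for Pxn, 28.6 for Ndg, 122 for Cg25C, 146 for vkg, 148 for LanA, 158 for LanB1, 223 for LanB2 and 245 for trol. All 8 genes were therefore read in the embryos compared. These limits cover counting error only.

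**Figure D3:**
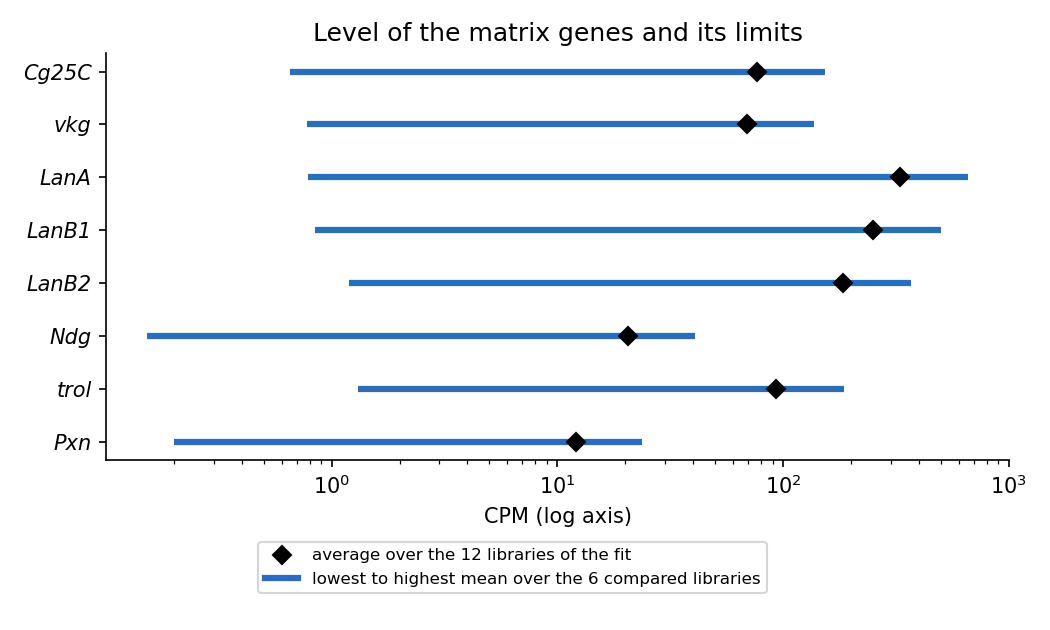
Average CPM of the 8 matrix genes over the 12 libraries (black diamonds) and the range that the mean over the 6 compared libraries can take (blue bars), on a log axis. The upper ends lie close to 2-fold the average and the lower ends between 0.152 CPM (Ndg) and 1.31 CPM (trol).

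The error of the fold change split the 8 genes. For the collagen, laminin and perlecan genes the SE lay between 0.19 and 0.27, and for Pxn and Ndg it was 0.53 and 0.55. Genes within 0.5 log2 units of the average of Pxn had a median SE of 0.25, and 91.5% of them had a smaller one than Pxn. For Ndg the median was 0.24, and 95.6% of such genes had a smaller SE. For trol 24.6% had a smaller SE and for LanB2 31.0%. A large SE at a given average can come from few reads in the compared libraries or from spread between replicates. That spread may include the other 6 libraries, since all 12 were fitted. In this table these sources cannot be told apart. With these errors, Ndg would have needed a log2 fold change of 1.68 to reach the threshold, vkg 0.74 and trol 0.58.

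**Figure D4:**
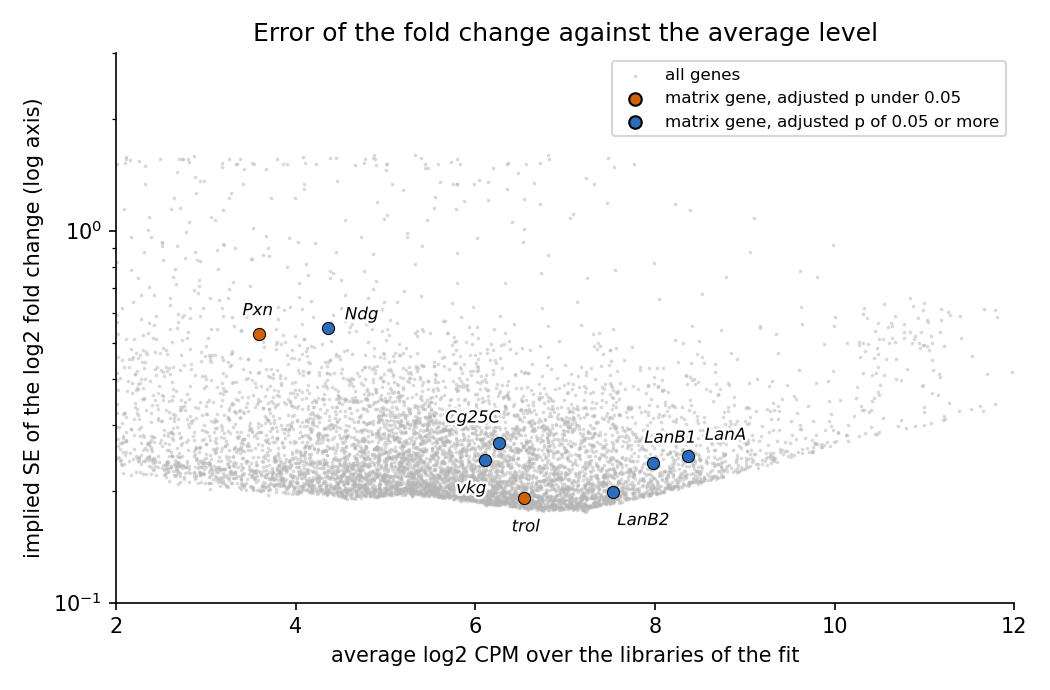
SE of the log2 fold change (y axis, log scale) against average log2 CPM (x axis) for genes of 4 CPM or more (grey) and the 8 matrix genes (coloured, orange where the adjusted p was under 0.05). Pxn and Ndg, at 0.53 and 0.55, lie above most genes of like average, and the other 6 genes lie between 0.19 and 0.27.

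Some genes overlap the matrix genes in the Release 6 annotation, and nothing in the sources says whether reads were counted by strand, so shared reads cannot be assigned with certainty. CG16986, which overlaps Pxn on the opposite strand, has a log2 fold change of 0.05 ± 0.21 at 15.9 CPM in the authors' deposited table. The noncoding gene CR45660, on the strand of Pxn, has 2.44 ± 1.61 at 0.235 CPM in the authors' deposited table, and its adjusted p was 0.806. CG34222, which overlaps Ndg, averaged 0.0918 CPM there. Among genes next to the called trol, boi has 0.09 ± 0.19 in the authors' deposited table and Pdfr 0.66 ± 0.48 at 0.404 CPM.

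Other secreted matrix proteins moved in both directions. Of 16 such genes, 1 was called positive and 2 negative in the authors' deposited table, against 2.30% and 2.19% of all genes. The median log2 fold change of the 16 was 0.09. The positive one was BM-40-SPARC (SPARC), a collagen IV binding glycoprotein of the basement membrane, for which the authors' deposited table lists 0.82 ± 0.21 at 7.96 CPM; the adjusted p was 0.00299. Of the negative ones in the authors' deposited table, pio, a protein of the apical matrix of epithelia, had -1.20 ± 0.36 (adjusted p 0.0249) and mspo, a secreted protein of the spondin family, had -1.04 ± 0.32 (adjusted p 0.0267). Papilin (Ppn), a basement membrane proteoglycan made by hemocytes, has 0.66 ± 0.30 in the authors' deposited table (adjusted p 0.35). Tsp, the thrombospondin of tendon cells, has -0.06 ± 0.79 there. An unadjusted p under 0.05 was found for 6 of the 16, 4 with a positive sign and 2 with a negative one. Over all genes, 5.66% had such a p with a positive sign. The 2 negative ones were pio and mspo, and the 4 positive ones included BM-40-SPARC, Ppn and wb. Of the 16 genes, 10 had a positive sign and 6 a negative one.

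Enzymes and export factors that cells need to secrete collagen IV showed 0 calls among 12 genes. Of all genes 2.30% were called positive and 2.19% negative, so 0 calls in so short a list do not set it apart. An unadjusted p under 0.05 was found for 1 of the 12. This was the collagen lysyl hydroxylase gene Plod, for which the authors' deposited table lists a log2 fold change of 0.45 ± 0.22 (adjusted p 0.410). The prolyl hydroxylase gene PH4alphaEFB has 0.13 ± 0.22 in the authors' deposited table, and Tango1, which loads collagen at endoplasmic reticulum exit sites, has 0.10 ± 0.24. The second smallest p of the list, 0.140, belongs to CG7787 (Strat), with -0.31 ± 0.21. The list's median was 0.10 on the log2 scale. Of the 12 genes, 10 had a positive sign and 2 a negative one.

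Receptors of this matrix and proteins of cell adhesion also showed 0 calls among 19 genes, against 2.30% positive and 2.19% negative over all genes. Of the 19 genes, 15 had a positive sign and 4 a negative one. The list had a median log2 fold change of 0.13 and 1 gene at an unadjusted p under 0.05. That gene was dally, a glypican, which has 0.48 ± 0.23 in the authors' deposited table (adjusted p 0.436). The integrin beta chain gene mys has 0.09 ± 0.18 at 149 CPM in the authors' deposited table, and the laminin-binding integrin alpha chain gene mew has 0.49 ± 0.34. The 95% interval of mys reached up to 1.36-fold. The dystroglycan gene Dg has 0.13 ± 0.19 in the authors' deposited table.

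Matrix remodelling enzymes and their inhibitors had 0 calls among 8 genes, against 2.30% positive and 2.19% negative over all genes. All 8 had a positive sign, against 49.2% of all genes. Their median log2 fold change was 0.33, or 0.20 with lox2, whose lower side held 3 reads or fewer, set to 0. An unadjusted p under 0.05 was found for 2 of them. In the authors' deposited table these 2 were stl, a protease of the ADAMTS family, with 0.59 ± 0.25 (adjusted p 0.242), and the matrix metalloprotease gene Mmp2, with 0.44 ± 0.21 (adjusted p 0.409). Mmp1 has 0.19 ± 0.27 at 2.40 CPM there.

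Of 9 other heme peroxidases, the enzyme family of Pxn, 0 were called positive and 1 negative, against 2.30% and 2.19% of all genes. The median log2 fold change of the 9 was -0.11. The called gene was CG10211, for which the authors' deposited table lists -1.13 ± 0.32 at 0.694 CPM (adjusted p 0.0118). CG5873, next by p, has -1.21 ± 0.82 at 0.159 CPM in the authors' deposited table. Pxt, a peroxidase linked to the eggshell, has -0.11 ± 0.27 at 521 CPM there.

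**Figure D5:**
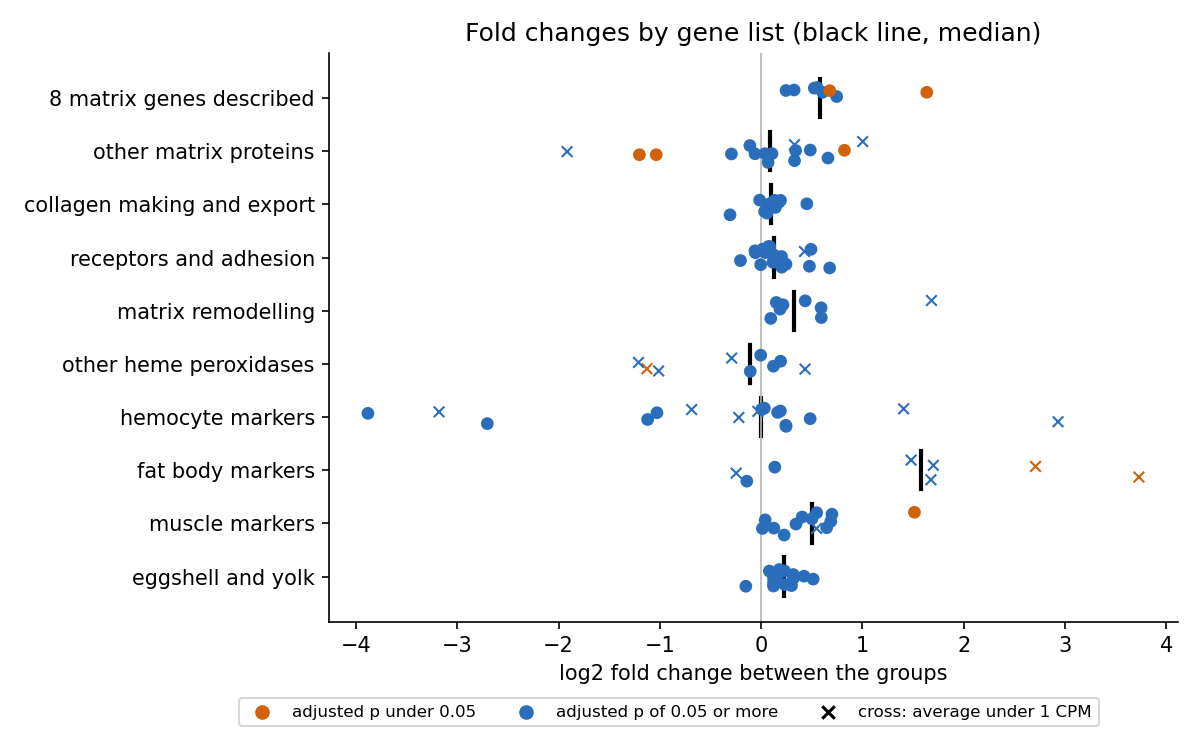
Log2 fold change in the authors' deposited table for each gene of 10 lists (rows), with the median as a black line. Orange marks an adjusted p under 0.05 and crosses mark genes averaging under 1 CPM; gcm2, with 0 reads in the compared libraries, is not drawn. The 8 matrix genes, the 8 matrix remodelling genes and the 13 muscle markers lie right of 0. So do 14 of the 15 eggshell and yolk genes. The hemocyte markers spread to both sides.

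Blood cells are a source of these matrix proteins in the embryo, and their markers lay on both sides of 0. Of 18 hemocyte markers, 0 were called on either side and 2 had an unadjusted p under 0.05, both with a negative fold change. Over all genes 2.30% were called positive and 2.19% negative. The list had 9 positive and 8 negative signs, and its median log2 fold change was 0.00; the remaining gene, the determinant gcm2, averaged 1.88 CPM in the authors' deposited table with 0 reads in the compared libraries. PPO1, a prophenoloxidase of crystal cells, has -3.88 ± 1.40 at 1.81 CPM in the authors' deposited table, and its adjusted p was 0.102. For NimC1, a phagocytosis receptor, the compared libraries could hold at most 0.0173 CPM, close to the 0.0160 CPM of 3 reads over them, and no fold is given. The plasmatocyte genes Hml, He and eater averaged 0.124, 0.177 and 0.0833 CPM in the authors' deposited table, and could reach at most 0.102, 0.191 and 0.0254 CPM in the compared libraries. The scavenger receptor gene crq and the GATA factor gene srp, which are also used outside blood cells, have 0.03 ± 0.23 and 0.24 ± 0.19 at 191 and 160 CPM in the authors' deposited table. Other markers with high averages over the 12 libraries lay on both sides, some with large errors. NimC4 has -2.70 ± 1.52 at 106 CPM and gcm -1.12 ± 1.10 at 32.3 CPM. Their test statistics need only 4.80 and 7.07 reads in the compared libraries, so these averages may lie mostly in the other 6. Pvr has 0.48 ± 0.27 at 31.5 CPM, and ush, drpr and Nplp2 have 0.16 ± 0.19, 0.25 ± 0.26 and 0.01 ± 0.28. Summed over the 18 genes, the compared libraries could hold at most 1659 CPM. This sum includes up to 381 CPM of crq and 319 CPM of srp, so it is not a limit for blood cell RNA. The part of blood cells in the Pxn result was not tested. In RNA of whole embryos, fewer cells of a type and less RNA per cell cannot be told apart.

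Muscle carries a basement membrane, and 1 of its 13 markers was called, on the positive side, where 2.30% of all genes were called. All 13 had a positive sign, against 49.2% of all genes, and their median log2 fold change was 0.50. An unadjusted p under 0.05 with a positive sign was found for 5 of the 13, against 5.66% of all genes. The called gene was Msp300, a giant protein that anchors muscle nuclei, for which the authors' deposited table lists 1.51 ± 0.21 at 55.8 CPM. The titin-like gene sls has 0.69 ± 0.24 (adjusted p 0.086), and the actin gene Act57B has 0.55 ± 0.24 at 27.2 CPM. The markers with the highest averages lay close to 0 in the authors' deposited table, with 0.01 ± 0.33 for the actin gene Act87E at 63.3 CPM, 0.04 ± 0.19 for the muscle transcription factor gene Mef2 at 107 CPM and 0.13 ± 0.30 for the tropomyosin gene Tm1 at 528 CPM. The muscle myosin gene Mhc, a defining marker of the muscles of late embryos, averaged 3.19 CPM in the authors' deposited table and could reach at most 6.11 CPM in the compared libraries. For Mlc2, up, wupA, Tm2 and Mlc1 these limits were 4.66, 4.27, 3.09, 1.85 and 1.24 CPM. The remaining muscle markers averaged more than Mhc. The age of the embryos comes from the labels. Whether the limits of Mhc and the other scarce markers match that age was not tested.

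Of 8 fat body markers 2 were called, both positive. Over all genes 2.30% were called positive and 2.19% negative. The median log2 fold change of the 8 markers was 1.58, or 0.07 with Lsp1alpha and Fbp1, whose lower side held 3 reads or fewer, set to 0. The called genes in the authors' deposited table were those of the larval storage proteins, Lsp2 with 3.73 ± 0.39 at 0.826 CPM and Lsp1beta with 2.71 ± 0.63 at 0.258 CPM. The fat body genes with the highest averages, Adh and Rfabg, have -0.14 ± 0.22 and 0.14 ± 0.28 in the authors' deposited table. Of 10 midgut proteases, 8 were called positive and 1 negative, led by Jon25Bi with 8.43 ± 0.36 in the authors' deposited table. Eggshell and yolk genes, which are products of the adult female, had 0 calls among 15 by edgeR's likelihood ratio test and 0 at an unadjusted p under 0.05, with a median log2 fold change of 0.23. The smallest p-values of that list belong to Yp1 and psd, which have 0.51 ± 0.41 and 0.23 ± 0.20 in the authors' deposited table. Of the 15 genes, 14 had a positive sign and 1 a negative one. The 15 genes averaged between 98.4 and 5067 CPM over the 12 libraries. The part of muscle, fat body, midgut or ovary tissue in the matrix results was not tested.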

How the data were processed

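RNA was measured in 6 samples (3 GFP control, 3 InR-DN). Per the labels, polyadenylated RNA was selected and libraries were made with a stranded total RNA kit. FastQC, Bowtie and TopHat were used per the submitters' processing notes; the name of the deposited file points to iGenomes known genes as the annotation, while its release, the genome build, the read counter and the tool versions were not stated, so no positions are printed. No sequence tables were used here, and no sequences are printed. The deposited table holds, per the file headers, the authors' log2 fold change and average log2 CPM, their likelihood ratio statistic (a score with 1 degree of freedom, from edgeR's glmLRT), and the deposited p-value and Benjamini-Hochberg adjusted p-value. Recomputing the p-values gave largest differences of 6.38e-15 and 3.55e-15. That test treats the estimated dispersion as known.

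The planned count test could not be run, since no column holds a value per sample, so the authors' test was used as deposited with a threshold of 0.05. Computed here in Python 3.11.15 with SciPy 1.17.1 were the SE of each fold change from the likelihood ratio, as if it were a Wald test, normal 95% intervals, library sizes solved from single-read genes (prior count 2, dispersion 0.0534; 77 of 78 predicted levels of genes with 2 reads were found within 1e-05), and limits of reads and CPM. The library size step was tried on simulated levels, and the intervals and read limits on simulated counts with a known dispersion. The upper CPM limits were not tried. The authors' dispersions were estimated, so the simulation does not show how well the intervals hold in these data. Transcript lengths and neighbours come from the BDGP6 annotation. All 136 genes of the 11 lists were matched by symbol or synonym. The members and lists were chosen with earlier results of these data known. The genes named are the 8 members and, per list, each called gene and the 2 with the smallest p, of which the called midgut proteases are given by count. The genes wb, Ppn, Tsp, PH4alphaEFB, Tango1, mys, Dg, Mmp1, Pxt, Hml, He, eater, crq, srp, NimC4, gcm, Pvr, ush, drpr, Nplp2, gcm2, Adh, Rfabg, Lsp1alpha, Fbp1, Mhc, Mlc1, Mlc2, up, wupA, Tm2, Act57B, Act87E, Mef2, Tm1, lox2 and the neighbouring genes were named after their values were seen.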

Additional observations from a re-analysis of the deposited data

How the results depend on the processing

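No paired analysis was possible because the table holds no value per sample, and for the same reason leaving out replicates was not run. The centring is the one alternative that changes the fold changes themselves. It lowers each by the same 0.02, less than the smallest of the 8 (vkg, 0.25), so none of their signs could change. At an adjusted p under 0.01, Pxn (0.0446) and trol (0.0113) no longer passed, and the called counts fell to 0 for the 8 genes and, on the negative side, to 0 for other matrix proteins, heme peroxidases and midgut proteases. At an adjusted p under 0.10, LanA (0.0547) passed, and muscle markers had 2 positive calls. With a 2-fold minimum, trol (0.68) no longer passed, which left 1 of the 8 genes, 0 positive calls for other matrix proteins and 0 negative calls for midgut proteases. With Benjamini-Yekutieli adjustment, Pxn had an adjusted p of 0.454 and trol of 0.116, and the same counts as at 0.01 fell to 0. Centred on the median of genes of 16 CPM or more (0.02), Pxn had 0.0501 and 1 of the 8 genes was called. Tested over genes of 1 CPM or more, heme peroxidases had 0 negative and fat body markers 0 positive calls, since their called members averaged less; all genes then had 209 positive and 135 negative calls. Tested over genes of 16 CPM or more, Pxn was not among the genes tested, 1 of the 8 genes was called (trol, adjusted p 0.0439), other matrix proteins had 0 calls on both sides, heme peroxidases and fat body markers 0, and midgut proteases 2 positive and 0 negative; all genes had 40 and 17, and 220 positive calls with Benjamini-Yekutieli. The losses under stricter thresholds, filters and adjustment follow from their construction. So does that of Pxn under the centring, which lowers its log2 fold change from 1.64 to 1.61 at the same SE. How many reads the compared libraries hold of each gene is known only between limits, so what depth adds to the large errors of Ndg and Pxn was not tested.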
